A study of Rattus norvegicus with 9 samples.

Results

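Mechanical ventilation with 21% oxygen was set against spontaneous breathing of 100% oxygen in rat lung, one exposure against the other. The samples were chosen by their titles: 2 titled Ven21 (lungs of mechanically ventilated rats given 21% oxygen) and 2 titled NonVen100 (lungs of spontaneously breathing rats given 100% oxygen), which are 4 of the 8 samples and 4 of the 9 arrays of the series. Each group has letters a and b. All 8740 probe sets that are not array controls were kept. The other groups, Ven100 (mechanical ventilation with 100% oxygen) and NonVen21 (spontaneous breathing of 21% oxygen), are used only to place the levels and to share the estimate of spread. The comparison changes the way of breathing and the oxygen together, so a difference between the groups cannot be assigned to either. Strain, age, sex, exposure time and tidal volume are not given in the sources used here. Whether letters a and b stand for separate animals is not stated either, and the p-values therefore reflect no more than the spread of these samples, which could be technical.

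A ventilator pushes gas into the lung under positive pressure, and the cyclic stretch of alveolar walls is known to act on epithelium, endothelium and matrix. High oxygen raises the formation of reactive oxygen species in the same cells, and haem oxygenase, thioredoxin-linked enzymes and chaperones are among the genes known to answer oxidative and protein damage. Both exposures are used in animals as models of injury that can occur in intensive care.

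Intensities are on a linear scale, with 2% trimmed means of 800.5 to 801.1 on all 9 arrays, and 18.8% to 19.5% of the probe sets of the 4 compared arrays were listed at or below 0. The 2 samples of a group correlated across probe sets with Pearson's r of 0.976 in Ven21 and 0.975 in NonVen100. Differences are Ven21 minus NonVen100 on the log2(intensity + 40) scale, which understates changes of dim genes, and are given ± SE. Adjusted p-values come from limma's moderated test with the Benjamini-Hochberg adjustment over 5244 tested probe sets. At an adjusted p under 0.05, 481 of 3181 tested genes were called (15.1%), 260 of them higher in Ven21 (8.17%) and 221 lower (6.95%), with a median difference over all tested genes of 0.01. Of the called genes, 76 were higher and 77 lower by more than 1 on the log2 scale, and 19 were higher and 8 lower by more than 2. Samples of the 2 groups did not overlap for 2017 genes (63.4%). The number of called genes was 189 without Ven21 letter a, 115 without Ven21 letter b, 270 without NonVen100 letter a and 153 without NonVen100 letter b, and the counts below are those with all 4 samples.

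**Figure D1:**
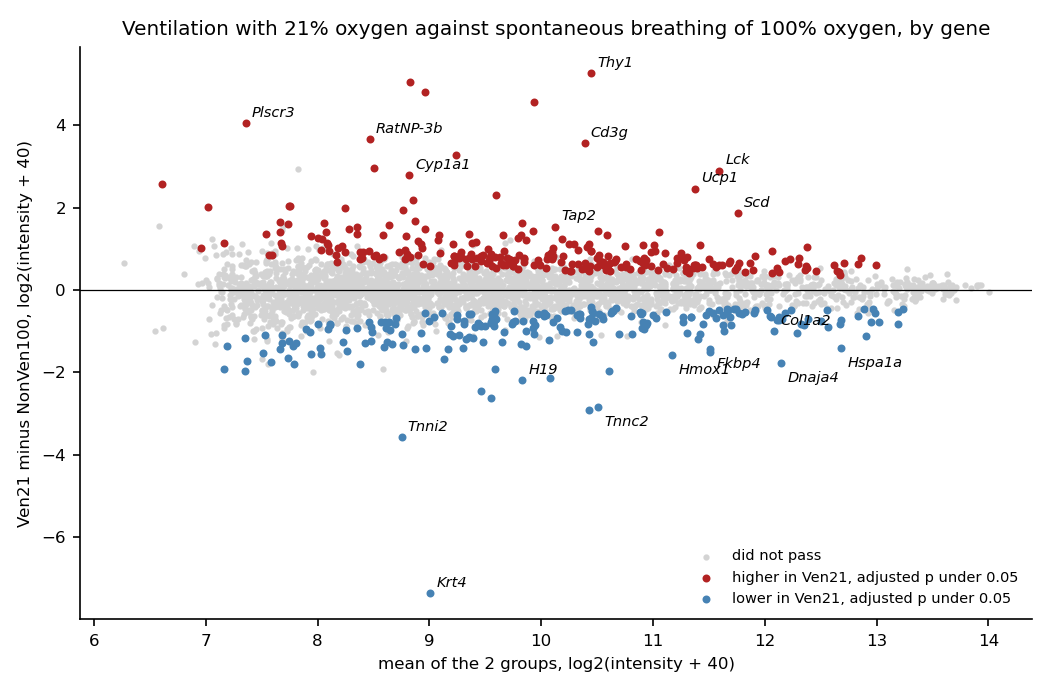
Each point is 1 tested gene, with the mean level of the groups on the x axis and the difference, Ven21 minus NonVen100, on the y axis, both on the log2(intensity + 40) scale. Called genes are coloured, 260 higher and 221 lower in Ven21, and Thy1 lies at the upper and Krt4 at the lower extreme.

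Markers of tissues other than lung parenchyma were among the largest differences, and their values are given before those of lung genes. Of 13 tested T lymphocyte and thymocyte markers, 11 were higher in Ven21 and 0 lower, with a median difference of 2.905. Thy1, a surface glycoprotein of rat thymocytes, measured 7727 and 9575 in Ven21 lungs, against 195 and 172 in NonVen100 lungs (log2 difference 5.28 ± 0.22, adjusted p = 1.4e-05). The T cell receptor subunit gene Cd3g measured 4467 and 4691 in Ven21 lungs, against 375 and 322 in NonVen100 lungs (log2 difference 3.57 ± 0.16, adjusted p = 1.4e-05). Both Ven21 samples were far above all 6 other samples for these genes, since Thy1 was at 173 and 138 in Ven100 and 258 and 166 in NonVen21. Lck, the kinase that starts T cell receptor signalling, measured 8396 and 8426 in Ven21 lungs, against 1086 and 1090.2 in NonVen100 lungs (log2 difference 2.90 ± 0.23, adjusted p = 2.7e-04). Cd8b, a chain of the CD8 coreceptor, measured 1814 and 1520.3 in Ven21 lungs, against 375 and 246 in NonVen100 lungs (log2 difference 2.30 ± 0.24, adjusted p = 9.5e-04). The summed intensity of the 16 genes of the list on the array was 37011 and 39662 in Ven21, against 4287 and 3813 in NonVen100, 4032 and 3626 in Ven100 and 5150 and 4843 in NonVen21. Rag1, a recombinase gene of immature lymphocytes, was too dim to test, at 43.6 and 3.94 in Ven21 lungs, against 6.09 and 28 in NonVen100 lungs. Cd4 was 242 and 267 in Ven21 lungs, against 213 and 135 in NonVen100 lungs, which did not pass (0.48, adjusted p = 0.27, 95% interval -0.15 to 1.11). In whole tissue a change in the number of cells of a type and a change in RNA per cell cannot be told apart. Leaving out 1 of the 4 samples gave 7 to 11 higher markers, with 7 without either Ven21 sample, and testing only the brightest 40% of probe sets left 6.

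Of 18 tested fat markers, 7 were higher in Ven21, 1 was lower and 10 did not pass, with a median of 0.764. Ucp1, the uncoupling protein that defines brown fat, measured 6179 and 6247 in Ven21 lungs, against 1098 and 1087 in NonVen100 lungs (log2 difference 2.46 ± 0.15, adjusted p = 5.7e-05). It was 37.8 and 31.1 in Ven100 and 248 and 271 in NonVen21, so both groups compared here stood above the 4 other samples. Fabp4, the adipocyte fatty acid carrier, measured 3387 and 3457 in Ven21 lungs, against 1368 and 1158 in NonVen100 lungs (log2 difference 1.41 ± 0.22, adjusted p = 0.0056), a call lost without NonVen100 letter b. Scd, a fatty acid desaturase that fat and alveolar type 2 cells share, measured 6645 and 6571 in Ven21 lungs, against 1737 and 1805 in NonVen100 lungs (log2 difference 1.88 ± 0.11, adjusted p = 5.7e-05). Car3, a carbonic anhydrase of fat and slow muscle, was lower, at 580.4 and 389.7 in Ven21 lungs, against 1193 and 1189.7 in NonVen100 lungs (log2 difference -1.25 ± 0.24, adjusted p = 0.012). It lost its call without Ven21 letter b or either NonVen100 sample. Leptin (Lep) did not pass, at 2393 and 3263 in Ven21 lungs, against 2986 and 3608 in NonVen100 lungs (-0.23, adjusted p = 0.57, 95% interval -0.80 to 0.34). The lipid droplet gene Plin1 was listed at or below 0 in all 4 samples. The list summed to 39930 and 41694 in Ven21 and 24194 and 25343 in NonVen100. Its count of higher genes was 3 without Ven21 letter b, 3 without NonVen100 letter b and 4 without Ven21 letter a.

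Striated muscle lists held more lower than higher calls. Of 25 tested skeletal muscle genes, 11 were lower in Ven21 and 2 higher, with a median of -0.451. Tnnc2, the fast troponin C gene, measured 534 and 469 in Ven21 lungs, against 3674 and 4065 in NonVen100 lungs (log2 difference -2.85 ± 0.24, adjusted p = 2.8e-04). Tnni2, the fast troponin I gene, measured 68.7 and 101 in Ven21 lungs, against 1397 and 1490.3 in NonVen100 lungs (log2 difference -3.58 ± 0.26, adjusted p = 1.7e-04). The myosin light chain gene Myl11 measured 467 and 453 in Ven21 lungs, against 3643 and 3873 in NonVen100 lungs (log2 difference -2.93 ± 0.23, adjusted p = 2.3e-04). For all 3 the NonVen100 samples were above every other sample of the series, with Tnnc2 at 23.8 and 58.5 in Ven100 and 329.9 and 415 in NonVen21. Testing only the brightest 40% of probe sets left 7 lower. Tnni2 was too dim to test without either NonVen100 sample, with an offset of 8, or among the brightest 40%. Its place among the tested genes came from the group in which it was high, so its adjusted p is no separate support. The summed list was 25006 and 25481 in Ven21, 46009 and 45026 in NonVen100, 15623 and 15448 in Ven100 and 18189 and 18369 in NonVen21. The 2 higher skeletal muscle genes were Myl2 (0.92, adjusted p = 0.030) and Tpm3 (0.61, adjusted p = 0.013). Myl2 measured 407 and 428 in Ven21 lungs, against 220 and 186 in NonVen100 lungs. Of 17 tested heart muscle markers 1 was higher, again Myl2, and 5 were lower. Among the lower ones was the cardiac troponin gene Tnni3, at 1809.9 and 2044 in Ven21 lungs, against 3162 and 2942 in NonVen100 lungs (log2 difference -0.65 ± 0.12, adjusted p = 0.0098). It lost its call without Ven21 letter a or NonVen100 letter a. Leaving out Ven21 letter a or b left 3 lower heart genes. The heart list summed to 21985 and 22951 in Ven21 and 36117 and 33746 in NonVen100. The skeletal and heart lists share Myl2, Myl3, Myh7, Casq2 and Cox6a2, so their counts and sums are not independent. Of 3 tested squamous epithelium genes, 2 were lower in Ven21, Krt4 and Sprr1a. Krt4, a keratin of squamous epithelium such as that of the oesophagus, was listed at or below 0 in both Ven21 samples and measured 6289 and 6826 in NonVen100 (adjusted p = 5.3e-07). It was also listed at or below 0 in both Ven100 samples and stood at 1139.8 and 1214 in NonVen21. Krt4 came among the tested genes only through its high NonVen100 samples, so its adjusted p is no separate support. Sprr1a, a cornified envelope precursor, measured 1283 and 2299.8 in Ven21 lungs, against 3937 and 3974 in NonVen100 lungs (log2 difference -1.18 ± 0.30, adjusted p = 0.032). It lost its call without Ven21 letter a or either NonVen100 sample. Krt14, a basal keratin, did not pass (-0.03, adjusted p = 0.98, 95% interval -1.27 to 1.22). Krt5, the partner of Krt14, was below the filter over all samples and was not tested. It stood the other way round, at 669 and 737 in Ven21 lungs, against 111 and 93.1 in NonVen100 lungs. With all genes of the T lymphocyte, fat, skeletal muscle, heart and squamous lists left out of the fit, an alternative added after the values were seen, 422 genes were called. The part that these tissues take in the results below was not tested otherwise.

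**Figure D2:**
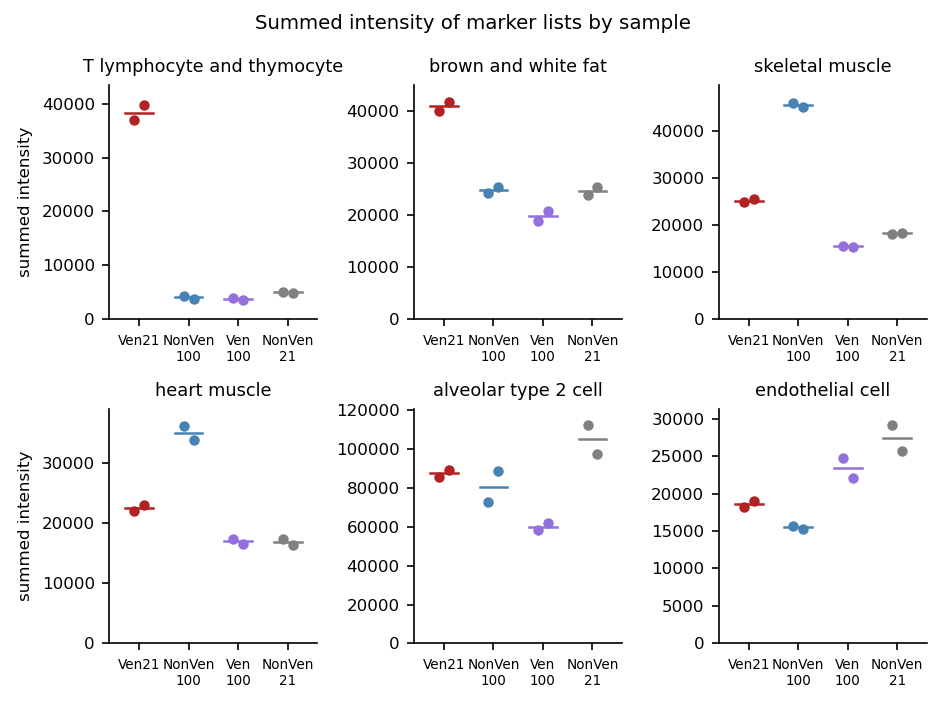
Summed intensity of each marker list on the y axis, with 1 point per sample and a line at the group mean, for Ven21, NonVen100, Ven100 and NonVen21 from left to right. T lymphocyte and fat sums are highest in Ven21, and skeletal and heart muscle sums are highest in NonVen100.

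Of 22 tested chaperone genes of the heat shock response, 10 were lower in Ven21, 1 was higher and 11 did not pass, with a median of -0.594, against 6.95% lower over all tested genes. Hspa1a, the inducible HSP70 that refolds damaged proteins, measured 3965 and 3966 in Ven21 lungs, against 8920.1 and 12655 in NonVen100 lungs (log2 difference -1.41 ± 0.16, adjusted p = 0.0015). The rat has a nearly identical gene copy beside it, so the probe set may read both. Fkbp4, a cochaperone of HSP90 in steroid receptor complexes, measured 1773 and 1693 in Ven21 lungs, against 5111 and 4454 in NonVen100 lungs (log2 difference -1.44 ± 0.14, adjusted p = 8.4e-04). Stip1, which passes clients between HSP70 and HSP90, measured 1682 and 1764 in Ven21 lungs, against 3517 and 3625 in NonVen100 lungs (log2 difference -1.03 ± 0.11, adjusted p = 9.5e-04). In each case both Ven21 samples were below both NonVen100 samples by a wide gap. Hsph1, a nucleotide exchange factor of HSP70, measured 5563 and 4783 in Ven21 lungs, against 9739 and 12791 in NonVen100 lungs (log2 difference -1.11 ± 0.15, adjusted p = 0.0033), and its second probe set was also lower. The mitochondrial chaperonin gene Hspd1 measured 4630.3 and 4131 in Ven21 lungs, against 7629.5 and 8873 in NonVen100 lungs (log2 difference -0.91 ± 0.12, adjusted p = 0.0030). The other lower members were Chordc1 (-0.99), Dnaja1 (-0.83), Cryab (-0.63), Dnajb1 (-0.56) and Hspe1 (-0.54). Dnaja2, a DnaJ cochaperone, was the higher one (0.64, adjusted p = 0.035). Dnaja4, a DnaJ cochaperone outside the list, was among the 15 largest decreases, at 2061 and 2767 in Ven21 lungs, against 9328 and 7298 in NonVen100 lungs (log2 difference -1.77 ± 0.17, adjusted p = 6.1e-04). The count of lower members ranged from 6, without Ven21 letter b or without NonVen100 letter b, to 10. Small heat shock protein Hspb1 did not pass, at 16530 and 15536 in Ven21 lungs, against 14109 and 19386 in NonVen100 lungs (-0.05, adjusted p = 0.90, 95% interval -0.49 to 0.40).

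The other groups placed these genes in different ways. Stip1 measured 4715 and 4368 in Ven100 and 1626 and 1649 in NonVen21, so that Ven21 lay near NonVen21 (difference 0.07, adjusted p = 0.70) while NonVen100 lay above NonVen21 (1.11, adjusted p = 7.1e-04). Hspd1 had the same order, with 0.03, adjusted p = 0.90 for Ven21 minus NonVen21 and 0.93, adjusted p = 0.0027 for NonVen100 minus NonVen21. Hspa1a differed from this order. It was lower in Ven21 than in NonVen21 (-0.81, adjusted p = 0.017) and higher in NonVen100 than in NonVen21 (0.61, adjusted p = 0.039), with 6936 and 6995 in the NonVen21 samples. These differences share the NonVen21 samples.

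**Figure D3:**
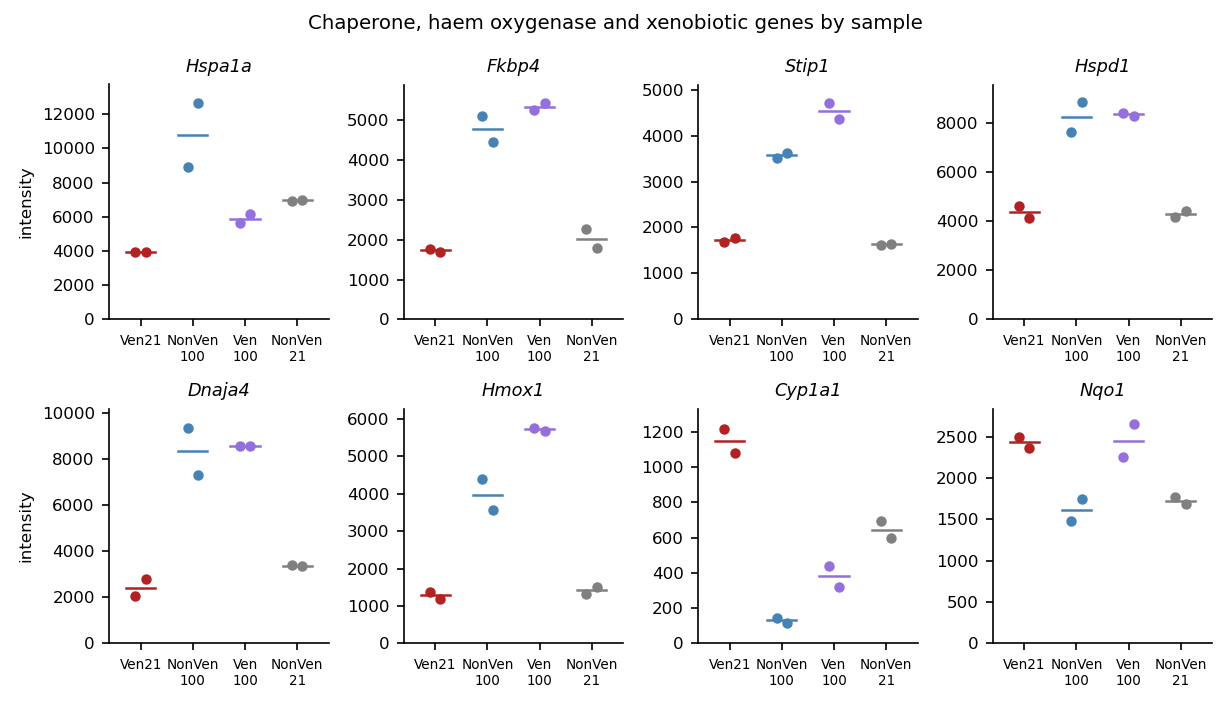
Intensity on the y axis for 8 stress and xenobiotic genes, with 1 point per sample and a line at the group mean, for Ven21, NonVen100, Ven100 and NonVen21 from left to right. Hspa1a, Fkbp4, Stip1, Hspd1, Dnaja4 and Hmox1 are lower in Ven21 than in NonVen100, and Cyp1a1 and Nqo1 are higher.

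Heat shock factor HSF1 is known to bind inverted repeats of a GAA unit, so the promoters of the chaperone genes are shown with those letters. The sequences are from RefSeq on GRCr8, run from 250 bases before to 50 after the start of the gene, and are written 5′ to 3′ on the strand of the gene. Capitals mark GAANNTTC or TTCNNGAA. As patterns, with N standing for any letter, these 8-letter pairs read the same on both strands. Neighbouring pairs overlap by 3 letters where 3 or more units follow each other. Hsph1 (chr12:10427118-10427417, plus strand) and Hspe1 (chr9:64084077-64084376, plus strand) hold 3 pairs each, and Stip1 (chr1:213657605-213657904, minus strand) holds 1 pair beginning 8 bases before its start.
Hsph1: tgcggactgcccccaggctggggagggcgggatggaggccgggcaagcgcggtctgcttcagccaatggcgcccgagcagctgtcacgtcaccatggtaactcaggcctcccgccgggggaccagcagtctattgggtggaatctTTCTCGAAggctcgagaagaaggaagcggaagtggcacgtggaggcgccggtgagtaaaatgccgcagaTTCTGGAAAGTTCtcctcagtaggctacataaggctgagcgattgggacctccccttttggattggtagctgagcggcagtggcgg
Hspe1: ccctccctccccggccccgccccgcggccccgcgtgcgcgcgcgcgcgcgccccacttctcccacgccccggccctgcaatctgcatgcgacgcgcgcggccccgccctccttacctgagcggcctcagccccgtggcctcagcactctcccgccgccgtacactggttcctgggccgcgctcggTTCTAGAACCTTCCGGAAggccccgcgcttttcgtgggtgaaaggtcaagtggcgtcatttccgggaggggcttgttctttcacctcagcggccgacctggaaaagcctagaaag
Stip1: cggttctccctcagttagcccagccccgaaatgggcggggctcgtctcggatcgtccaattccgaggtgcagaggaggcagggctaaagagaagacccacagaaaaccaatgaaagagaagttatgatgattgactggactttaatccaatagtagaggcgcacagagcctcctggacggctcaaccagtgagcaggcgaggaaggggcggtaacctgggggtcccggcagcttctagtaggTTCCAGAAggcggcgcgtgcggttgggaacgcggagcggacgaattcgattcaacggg

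The pairs of Hspe1 begin 65, 60 and 55 bases before its start. They stand at chr9:64084262-64084279, a stretch that also lies in the promoter window of the neighbouring Hspd1 on the other strand, so both chaperonin genes share these letters. In Hsph1 the pairs begin 105, 36 and 31 bases before the start. Of 33469 promoters of the same length, 15.9% hold at least 1 pair and 0.80% hold 3 units in a row. Promoters were matched for 9 of the 10 lower chaperone genes: 8 held a pair, and 5 of these held 3 units in a row (Chordc1, Dnaja1, Hspd1, Hspe1 and Hsph1). Among 9 matched members that did not pass, 4 held a pair and 1 held 3 units. Hspa1a, with its values above, had no match in the window, which says only that these letters are not there. A match describes letters and is not a shown binding site.

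Hmox1, which encodes the inducible enzyme that breaks down haem, was lower in Ven21, at 1382 and 1199 in Ven21 lungs, against 4392 and 3554 in NonVen100 lungs (log2 difference -1.59 ± 0.14, adjusted p = 4.6e-04). Both probe sets of the gene were lower. The Ven21 samples did not differ from NonVen21 beyond the threshold (-0.14, adjusted p = 0.56), whereas NonVen100 was above NonVen21 (1.45, adjusted p = 7.7e-04). Of 16 tested members of the list of genes controlled by the oxidant-sensing factor Nrf2, 5 were higher, Hmox1 was the 1 lower and 10 did not pass. The higher share was 31.2%, beside 8.17% over all tested genes. The list median was 0.132, with 9 differences above 0 and 7 below. Nqo1, a quinone reductase, measured 2490.4 and 2368 in Ven21 lungs, against 1483 and 1749 in NonVen100 lungs (log2 difference 0.58 ± 0.13, adjusted p = 0.024). Tkt, an enzyme of the pentose phosphate path, measured 5025 and 4267 in Ven21 lungs, against 3113 and 2754 in NonVen100 lungs (log2 difference 0.65 ± 0.13, adjusted p = 0.013). Gstp1, a glutathione transferase (log2 difference 0.46 ± 0.11, adjusted p = 0.029), Gsr, glutathione reductase (0.81, adjusted p = 0.033), and Me1, malic enzyme (log2 difference 0.88 ± 0.20, adjusted p = 0.024), were the other higher members. For each of these the groups did not overlap, as for 63.4% of all tested genes, and the margin was small. Leaving out Ven21 letter a, Ven21 letter b, NonVen100 letter a or NonVen100 letter b left 0, 1, 2 and 1 higher members, and testing without the filter on dim probe sets left 2. Gstp1 also lost its call without either Ven100 sample. Among superoxide and peroxide enzymes, 2 of 15 were higher and 0 lower, a called share of 13.3% beside 15.1% over all tested genes. Sod2, mitochondrial superoxide dismutase, measured 2012 and 1970.1 in Ven21 lungs, against 1273 and 1189.7 in NonVen100 lungs (log2 difference 0.68 ± 0.12, adjusted p = 0.0098). It lost its call without either Ven21 sample or NonVen100 letter b. Catalase (Cat) measured 1288 and 1138 in Ven21 lungs, against 775 and 796 in NonVen100 lungs (log2 difference 0.60 ± 0.14, adjusted p = 0.026). It lost its call without any 1 of the 4 samples. Sod1, the cytosolic superoxide dismutase, did not pass (-0.27, adjusted p = 0.17, 95% interval -0.55 to 0.01).

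Cyp1a1, a monooxygenase induced through the aryl hydrocarbon receptor, was higher in Ven21, at 1215 and 1083 in Ven21 lungs, against 144 and 117 in NonVen100 lungs (log2 difference 2.80 ± 0.20, adjusted p = 1.7e-04). It was 441 and 319 in Ven100 and 695 and 597 in NonVen21, so the NonVen100 samples were the lowest of all 8 and the Ven21 samples the highest. Of 5 tested genes of this receptor 2 were higher, the second being Cyp1b1, a related monooxygenase, at 1052 and 962 in Ven21 lungs, against 704 and 621 in NonVen100 lungs (log2 difference 0.58 ± 0.14, adjusted p = 0.032). Cyp1b1 lost its call without any 1 of the 4 samples. Cyp1a2, usually a liver enzyme, did not pass, at 153 and 284 in Ven21 lungs, against 359 and 329 in NonVen100 lungs (-0.62, adjusted p = 0.26, 95% interval -1.41 to 0.18).

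Immediate early genes, whose products act on transcription or mRNA decay within minutes of a stimulus, held calls in both directions. Of 27 tested members 6 were lower in Ven21, 2 were higher and 19 did not pass, with a median of -0.294. Zfp36, which binds AU-rich mRNA and speeds its decay, measured 1148 and 1066 in Ven21 lungs, against 2605 and 2132 in NonVen100 lungs (log2 difference -1.06 ± 0.13, adjusted p = 0.0019). Crem, a cAMP-responsive transcription factor, measured 1007 and 1038 in Ven21 lungs, against 1599.7 and 1498 in NonVen100 lungs (log2 difference -0.58 ± 0.12, adjusted p = 0.018). Fos, a subunit of AP-1, measured 1064 and 1189 in Ven21 lungs, against 1584 and 1753 in NonVen100 lungs (log2 difference -0.55 ± 0.12, adjusted p = 0.021). The stress factor Atf3 measured 843 and 728 in Ven21 lungs, against 1175 and 1192 in NonVen100 lungs (log2 difference -0.57 ± 0.16, adjusted p = 0.048). Ven21 samples were below NonVen100 samples for each of the 4 genes, and the groups did not overlap for 63.4% of all tested genes. Junb (-0.66, adjusted p = 0.038) and Cebpd (-0.69, adjusted p = 0.044) were the other lower members. Klf4, a transcription factor of epithelium and endothelium, was higher at 1085 and 1075 in Ven21 lungs, against 687 and 589 in NonVen100 lungs (log2 difference 0.73 ± 0.13, adjusted p = 0.011), as was Id2, an inhibitor of helix-loop-helix factors (log2 difference 0.50 ± 0.12, adjusted p = 0.029). Egr1, a zinc finger factor that responds to stretch in many cells, did not pass, at 1579.5 and 1761 in Ven21 lungs, against 1691 and 1640.5 in NonVen100 lungs (0.00, adjusted p = 1.00, 95% interval -0.29 to 0.29), and its groups overlapped. Nr4a1, an orphan nuclear receptor, did not pass, at 559 and 648 in Ven21 lungs, against 1072 and 756 in NonVen100 lungs (-0.55, adjusted p = 0.16, 95% interval -1.10 to 0.00). Zfp36 kept its call under every alternative tried, but Klf4 and Id2 lost theirs without either Ven21 sample or NonVen100 letter b. Crem, Fos and Atf3 lost theirs without any 1 of the 4 samples. The number of lower members was then 1 without Ven21 letter a or NonVen100 letter b, and 2 without Ven21 letter b or NonVen100 letter a. Without the filter on dim probe sets it was 3, and without the variance trend it was also 3.

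Il6 and Ccl2, a cytokine and a chemokine gene induced in injured lung, did not pass the test between the exposures. Il6, the interleukin-6 gene, measured 377 and 384 in Ven21 lungs, against 485 and 461 in NonVen100 lungs (-0.29, adjusted p = 0.36, 95% interval -0.74 to 0.17), and both groups stood above NonVen21, where it was listed at or below 0. Ccl2, the monocyte attractant, measured 1449 and 1401 in Ven21 lungs, against 1514 and 1809.7 in NonVen100 lungs (-0.21, adjusted p = 0.40, 95% interval -0.57 to 0.15), against 334 and 396 in NonVen21. The groups did not overlap for Il6 or for Ccl2, but for neither gene did the difference pass. Of 22 tested cytokine and chemokine genes, 1 was higher and 2 were lower, a called share of 13.6% beside 15.1% over all tested genes. Mif, a cytokine released by macrophages and epithelium, was the higher one at 6435 and 5914 in Ven21 lungs, against 3468 and 3875 in NonVen100 lungs (log2 difference 0.74 ± 0.15, adjusted p = 0.013). Ccl20, an attractant of dendritic cells (log2 difference -0.68 ± 0.19, adjusted p = 0.044), and Il1a, interleukin-1 alpha (log2 difference -0.48 ± 0.14, adjusted p = 0.049), were the lower ones, and both lost their call without any 1 of the 4 samples. Ccl20 also lost it without either Ven100 sample, and Il1a without either NonVen21 sample or Ven100 letter a. Mif lost its call without either Ven21 sample or NonVen100 letter a.

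In the list of NF-kappaB, acute phase and adhesion genes, 3 of 26 tested members were higher and 3 lower, a called share of 23.1%. Icam1, the leukocyte adhesion receptor, measured 3241 and 3266 in Ven21 lungs, against 2081 and 2136 in NonVen100 lungs (log2 difference 0.62 ± 0.11, adjusted p = 0.0096). Nfkbia, the inhibitor that holds NF-kappaB in the cytoplasm, measured 2879 and 3415 in Ven21 lungs, against 1980.5 and 1799 in NonVen100 lungs (log2 difference 0.72 ± 0.12, adjusted p = 0.0088). For both genes NonVen100 was below NonVen21 (-0.77, adjusted p = 0.0040 for Icam1 and -0.88, adjusted p = 0.0036 for Nfkbia), while Ven21 minus NonVen21 did not pass (-0.15, adjusted p = 0.40 and -0.16, adjusted p = 0.41). Cd14, the coreceptor for endotoxin, was the third (log2 difference 0.49 ± 0.14, adjusted p = 0.050). Stat3, the transcription factor downstream of interleukin-6, was lower by its brightest probe set, at 159.7 and 202 in Ven21 lungs, against 514 and 471 in NonVen100 lungs (log2 difference -1.28 ± 0.21, adjusted p = 0.0072), and its second probe set did not pass (-0.37, adjusted p = 0.29). Ptgs2, the inducible cyclooxygenase, measured 129 and 79.6 in Ven21 lungs, against 298 and 314 in NonVen100 lungs (log2 difference -1.28 ± 0.29, adjusted p = 0.022). Il6r, a chain of the interleukin-6 receptor, measured 1131 and 966 in Ven21 lungs, against 1879 and 1609 in NonVen100 lungs (log2 difference -0.71 ± 0.18, adjusted p = 0.035). Icam1 lost its call without either Ven21 sample. Nfkbia lost it without Ven21 letter b or NonVen100 letter b, and Ptgs2 without Ven21 letter b or either NonVen100 sample. Cd14 and Il6r lost it without any 1 of the 4, Cd14 also without any other sample of the series. The P-selectin gene Selp did not pass, at 794 and 666 in Ven21 lungs, against 548 and 556 in NonVen100 lungs (0.37, adjusted p = 0.14, 95% interval 0.02 to 0.73).

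Neutrophil genes were mixed, with 2 of 11 tested markers higher and 1 lower. RatNP-3b, a neutrophil defensin, measured 1117 and 1297 in Ven21 lungs, against 37.3 and 83.1 in NonVen100 lungs (log2 difference 3.67 ± 0.30, adjusted p = 2.8e-04). Defa5, a related defensin, measured 512 and 342 in Ven21 lungs, against 73.4 and 152 in NonVen100 lungs (log2 difference 1.64 ± 0.35, adjusted p = 0.018). Their sequences are alike, so signal may be shared between their probe sets. Cxcr1, a receptor for neutrophil attractants, was lower (log2 difference -0.58 ± 0.15, adjusted p = 0.036). The granule genes S100a8 (0.15, adjusted p = 0.36, 95% interval -0.09 to 0.38) and S100a9 (0.12, adjusted p = 0.59, 95% interval -0.19 to 0.43) did not pass. RatNP-3b was too dim to test with the lowest 60% of probe sets left out, and kept its call under every other alternative tried. It came among the tested genes only through its high Ven21 samples, so its adjusted p and kept calls are no separate support. Defa5 lost its call without either Ven21 sample or NonVen100 letter a, and Cxcr1 without any 1 of the 4. Macrophage markers had 2 of 13 tested genes higher, Cd14 and Lgals3, a secreted lectin (log2 difference 0.45 ± 0.11, adjusted p = 0.034), which lost its call without either Ven21 sample, NonVen100 letter b or either Ven100 sample. The called share of the macrophage list was 15.4%, near the 15.1% over all tested genes. In the coagulation list 2 of 12 tested genes were called, a share of 16.7% that is also near 15.1%. F3, tissue factor, was higher at 2084 and 2020 in Ven21 lungs, against 1407 and 1367 in NonVen100 lungs (log2 difference 0.55 ± 0.11, adjusted p = 0.013). Thbd, the endothelial anticoagulant thrombomodulin, was lower by its brightest probe set at 384 and 432 in Ven21 lungs, against 1069 and 862 in NonVen100 lungs (log2 difference -1.16 ± 0.24, adjusted p = 0.017). The second probe set of Thbd did not pass (-0.30, adjusted p = 0.56). F3 lost its call without either Ven21 sample or NonVen100 letter b, and Thbd without any 1 of the 4.

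Surfactant genes did not pass the test. Sftpc, the surfactant protein C gene of alveolar type 2 cells, measured 7784 and 9252 in Ven21 lungs, against 6019.6 and 9660.2 in NonVen100 lungs (0.15, adjusted p = 0.71, 95% interval -0.41 to 0.72). Sftpb, surfactant protein B, had 15104 and 16391 in Ven21 lungs, against 11558 and 17928 in NonVen100 lungs (0.13, adjusted p = 0.76, 95% interval -0.44 to 0.69). The groups overlapped for both, and NonVen100 letter b was the highest of the 4 samples. Sftpa1 had 12773 and 13131 in Ven21 lungs, against 11178 and 12464 in NonVen100 lungs (0.13, adjusted p = 0.56, 95% interval -0.19 to 0.46). In the type 2 cell list, 2 of 13 tested genes were higher, Scd and the fatty acid synthase gene Fasn (log2 difference 0.61 ± 0.16, adjusted p = 0.039). The 1 lower was Nkx2-1, the transcription factor of lung epithelium, at 1608 and 1475 in Ven21 lungs, against 2458 and 2095 in NonVen100 lungs (log2 difference -0.55 ± 0.14, adjusted p = 0.032). Scd is also a member of the fat list given above, in which 7 genes were higher, 1 was lower and 10 did not pass. Fasn and Nkx2-1 lost their call without any 1 of the 4 samples, Fasn also without either Ven100 sample. Of 6 tested type 1 cell genes only Krt19, a simple epithelial keratin that airway cells share, was called, at 4091 and 3862 in Ven21 lungs, against 1773 and 1889 in NonVen100 lungs (log2 difference 1.10 ± 0.12, adjusted p = 9.7e-04). Ager, the receptor abundant in type 1 cells, did not pass, at 9983 and 10954 in Ven21 lungs, against 8370.5 and 10084 in NonVen100 lungs (0.19, adjusted p = 0.45, 95% interval -0.17 to 0.54).

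Airway genes were called in both directions, 4 of 10 tested higher and 3 lower in Ven21. Krt8, a simple epithelial keratin, measured 2425 and 2491 in Ven21 lungs, against 1145 and 1144 in NonVen100 lungs (log2 difference 1.08 ± 0.11, adjusted p = 9.4e-04). Its partner Krt18 measured 3204 and 2961 in Ven21 lungs, against 1931 and 1611 in NonVen100 lungs (log2 difference 0.79 ± 0.14, adjusted p = 0.0097). For Krt8 and Krt19 the NonVen100 samples stood apart. Krt8 was 2227 and 2153 in Ven100 and 2104 and 1969 in NonVen21. NonVen100 minus NonVen21 was -0.81, adjusted p = 0.0032 for Krt8 and -0.96, adjusted p = 0.0021 for Krt19. Tff3, a mucosal trefoil peptide, measured 392 and 654 in Ven21 lungs, against 138 and 162 in NonVen100 lungs (log2 difference 1.53 ± 0.25, adjusted p = 0.0080). Cyp2a3, a nasal and lung monooxygenase of the rat, was lower, at 947 and 876 in Ven21 lungs, against 1961 and 1929.8 in NonVen100 lungs (log2 difference -1.06 ± 0.12, adjusted p = 0.0014). Cyp2f4, a club cell enzyme that activates naphthalene, was lower too, at 1268 and 1322 in Ven21 lungs, against 1851 and 1893 in NonVen100 lungs (log2 difference -0.52 ± 0.11, adjusted p = 0.018). Fmo1, a flavin monooxygenase, was the fourth higher gene (0.55, adjusted p = 0.042), and Aldh1a1, a retinal dehydrogenase, the third lower one (-0.46, adjusted p = 0.046). Krt18 lost its call without Ven21 letter a or NonVen100 letter b, Tff3 without Ven21 letter b, and Cyp2f4 without any 1 of the 4. With any 1 of the 4 samples left out, 1 lower and 2 to 3 higher airway genes were called. Of 18 tested genes of ion and water transport and junctions, 1 was higher, the carbonic anhydrase Car4 described below, and 3 were lower. Tjp1, the tight junction scaffold, was lower at 1146 and 982 in Ven21 lungs, against 1934 and 1685 in NonVen100 lungs (log2 difference -0.75 ± 0.14, adjusted p = 0.011). So were Fxyd1, a regulator of the sodium pump (log2 difference -0.57 ± 0.14, adjusted p = 0.029), and Car2, a carbonic anhydrase (log2 difference -0.49 ± 0.11, adjusted p = 0.019). Tjp1 lost its call without Ven21 letter b or NonVen100 letter a, and Fxyd1 and Car2 without any 1 of the 4.

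Car4, a membrane carbonic anhydrase of lung capillaries, was higher in Ven21, at 2412 and 2297 in Ven21 lungs, against 858 and 835 in NonVen100 lungs (log2 difference 1.43 ± 0.12, adjusted p = 3.2e-04). The series had 2 ranges of it: it was 1159 and 1358 in Ven100 and 2645 and 2639 in NonVen21, so the 100% oxygen samples were the low ones. NonVen100 minus NonVen21 was -1.60, adjusted p = 2.6e-04, and Ven21 minus NonVen21 was -0.16, adjusted p = 0.40. Kdr, the main receptor of vascular endothelial growth factor, measured 428 and 423 in Ven21 lungs, against 175 and 243 in NonVen100 lungs (log2 difference 0.92 ± 0.21, adjusted p = 0.025). Kdr lost its call without any 1 of the 4 samples. Its ligand gene Vegfa was lower, at 1444 and 1453 in Ven21 lungs, against 2819.9 and 2333 in NonVen100 lungs (log2 difference -0.81 ± 0.15, adjusted p = 0.010), by 2 of its 3 tested probe sets. Vegfa lost its call without either Ven21 sample or NonVen100 letter a. In all, 2 of 14 tested endothelial genes were higher and 1, Thbd, lower. Of 23 tested growth factor genes, 2 were higher, Kdr and the epidermal growth factor family ligand Areg (log2 difference 1.15 ± 0.30, adjusted p = 0.038), and Vegfa was the 1 lower. The called share of the growth factor list was below the 15.1% over all tested genes. Areg lost its call without Ven21 letter b or NonVen100 letter b, and was too dim to test without Ven21 letter a or either Ven100 sample.

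Extracellular matrix genes were lower in Ven21 wherever they were called: 9 of 30 tested members were lower and 0 higher, with a median of -0.426. Col1a2, a chain of type I collagen, measured 2911 and 3125 in Ven21 lungs, against 6212 and 5979.6 in NonVen100 lungs (log2 difference -1.01 ± 0.11, adjusted p = 9.7e-04). P4ha1, the prolyl hydroxylase subunit that stabilises collagen, measured 6017 and 5937 in Ven21 lungs, against 10383 and 10300.5 in NonVen100 lungs (log2 difference -0.79 ± 0.10, adjusted p = 0.0026). For Col1a2 the Ven21 samples were the lowest of all 8, with -1.23, adjusted p = 4.4e-04 against NonVen21, whereas for P4ha1 Ven21 lay near NonVen21 (0.04, adjusted p = 0.82) and NonVen100 above it (0.83, adjusted p = 0.0021). Plod1, a collagen lysyl hydroxylase, measured 690.4 and 919 in Ven21 lungs, against 1714 and 1595 in NonVen100 lungs (log2 difference -1.02 ± 0.19, adjusted p = 0.013). Pcolce, an enhancer of procollagen cleavage, measured 784 and 771 in Ven21 lungs, against 1861 and 1360.2 in NonVen100 lungs (adjusted p = 0.0097). Fbln5, which organises elastic fibres, measured 2545 and 2173 in Ven21 lungs, against 3905 and 3692 in NonVen100 lungs (log2 difference -0.68 ± 0.12, adjusted p = 0.0098). No sample of Ven21 overlapped NonVen100 for these genes, as for 63.4% of all tested genes. Fibronectin (Fn1, -0.61, adjusted p = 0.014), Lamc1 (-0.60, adjusted p = 0.026), Bgn (-0.49, adjusted p = 0.035) and Col15a1 (-1.02, adjusted p = 0.032) were the other lower members. Col1a1 had the same sign without passing (-0.55, adjusted p = 0.059, 95% interval -0.93 to -0.17). Elastin did not pass (Eln, 0.12, adjusted p = 0.48, 95% interval -0.12 to 0.36). The count of lower members was 3 without Ven21 letter b, 4 without NonVen100 letter a, 6 without Ven21 letter a, 6 without NonVen100 letter b and 5 without the filter on dim probe sets. Plod1 lost its call without Ven21 letter a or either NonVen100 sample, and Pcolce and Fbln5 without Ven21 letter b.

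Among matrix proteases and their inhibitors 1 of 21 tested genes was called: Ctse, an aspartic protease of epithelium and immune cells, was higher at 801 and 779 in Ven21 lungs, against 273 and 244 in NonVen100 lungs (log2 difference 1.48 ± 0.19, adjusted p = 0.0026). In smooth muscle, Acta2, the alpha actin gene, was higher by its brightest probe set, at 6123 and 5664 in Ven21 lungs, against 2911 and 3167 in NonVen100 lungs (log2 difference 0.95 ± 0.11, adjusted p = 0.0015), but its 2 other probe sets did not pass (0.07, adjusted p = 0.73, and 0.49, adjusted p = 0.070). Cald1, an actin-binding regulator of contraction (log2 difference -0.75 ± 0.16, adjusted p = 0.018), and Myl9, the regulatory myosin light chain (log2 difference -0.56 ± 0.12, adjusted p = 0.018), were lower. Cald1 lost its call without either Ven21 sample or NonVen100 letter a, and Myl9 without either Ven21 sample or NonVen100 letter b.

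**Figure D4:**
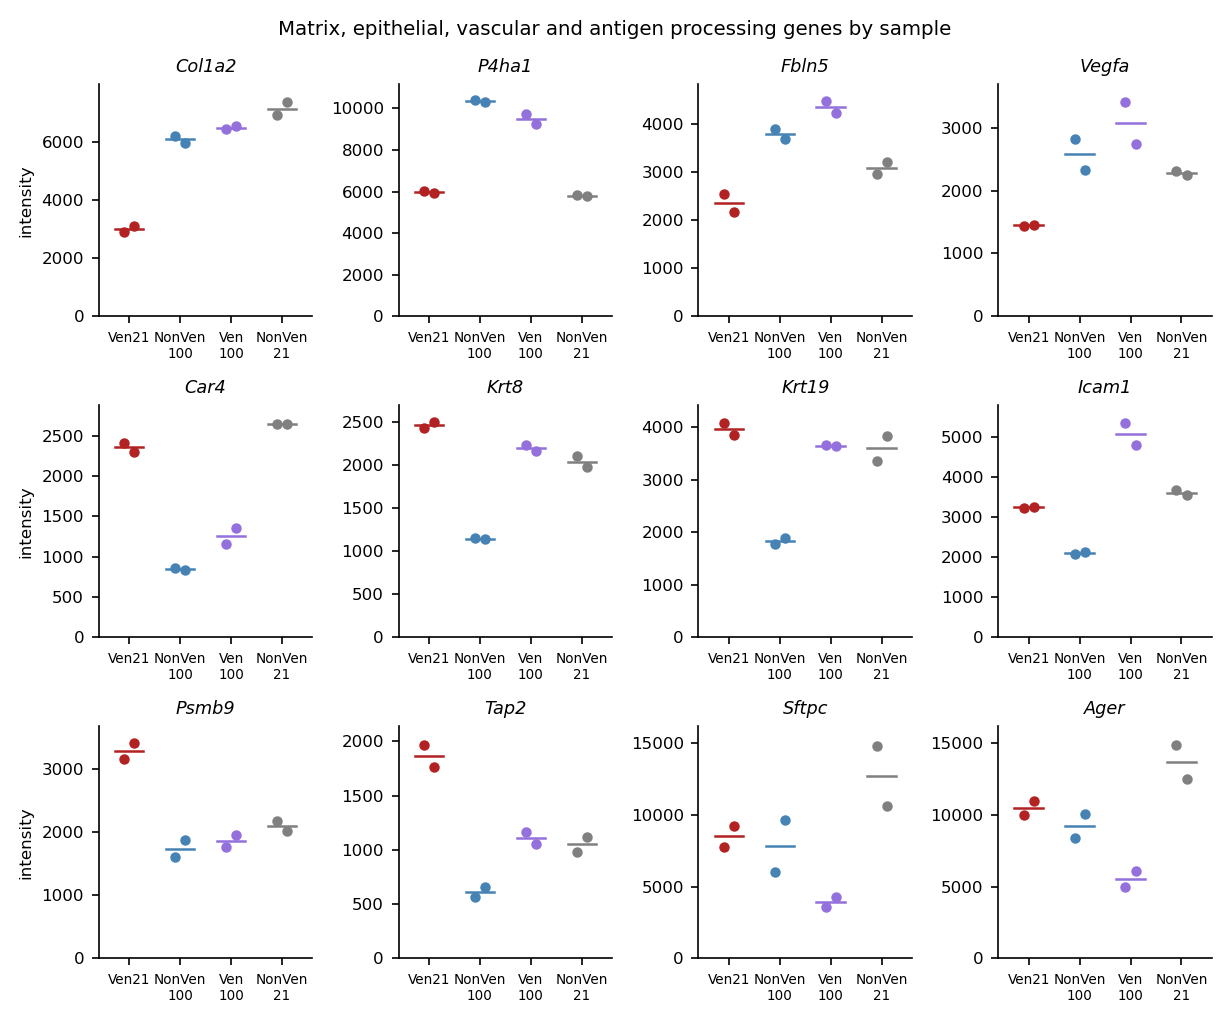
Intensity on the y axis for 12 genes of matrix, epithelium, vessels and antigen processing, with 1 point per sample and a line at the group mean, for Ven21, NonVen100, Ven100 and NonVen21 from left to right. Col1a2, P4ha1, Fbln5 and Vegfa are lower in Ven21 than in NonVen100, Car4, Krt8, Krt19, Icam1, Psmb9 and Tap2 are higher, and Sftpc and Ager did not pass the test.

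Of 17 tested genes of MHC class I and interferon, 5 were higher in Ven21, 0 were lower and 12 did not pass. Tap2, a subunit of the peptide transporter, measured 1965 and 1767 in Ven21 lungs, against 569 and 659.9 in NonVen100 lungs (log2 difference 1.54 ± 0.14, adjusted p = 5.7e-04). Psmb9, a catalytic subunit of the immunoproteasome, measured 3157 and 3414 in Ven21 lungs, against 1612 and 1874 in NonVen100 lungs (log2 difference 0.90 ± 0.13, adjusted p = 0.0036). Both Ven21 samples were above the 6 other samples for each gene. Irf7, a regulator of interferon genes, measured 2391 and 2386 in Ven21 lungs, against 1136 and 742 in NonVen100 lungs (log2 difference 1.34 ± 0.26, adjusted p = 0.013). RT1-S3, a class I gene of the rat (log2 difference 0.70 ± 0.15, adjusted p = 0.017), and Psmb8, a second immunoproteasome subunit (log2 difference 0.64 ± 0.17, adjusted p = 0.040), were the others. Class I genes are alike enough that probe sets may share signal. The T lymphocyte markers were higher beside them, with a summed level of 37011 and 39662 in Ven21 and 4287 and 3813 in NonVen100. The part of those cells was not tested. The count was 2 without Ven21 letter a, Ven21 letter b or NonVen100 letter b, and 2 without the filter. Irf7 and RT1-S3 lost their call without either Ven21 sample or NonVen100 letter b, and Psmb8 without any 1 of the 4 or either NonVen21 sample. For class II, 2 of 9 tested genes were higher, the peptide-loading genes RT1-DMa (0.46, adjusted p = 0.041) and RT1-DMb (0.47, adjusted p = 0.042). RT1-Da, a class II alpha chain, did not pass (0.21, adjusted p = 0.25, 95% interval -0.05 to 0.47). Both class II calls were lost without any 1 of the 4 samples or either Ven100 sample.

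Of 23 tested cell cycle genes, 9 were higher in Ven21, 2 were lower and 12 did not pass, with a median of 0.305. Top2a, the topoisomerase of dividing cells, measured 1560.2 and 1200.4 in Ven21 lungs, against 556 and 586 in NonVen100 lungs (log2 difference 1.21 ± 0.18, adjusted p = 0.0048). Ccnb1, the mitotic cyclin, measured 418 and 379 in Ven21 lungs, against 142 and 111 in NonVen100 lungs (log2 difference 1.40 ± 0.24, adjusted p = 0.0088). Dut, which keeps uracil out of DNA, measured 1729 and 1771 in Ven21 lungs, against 755 and 823 in NonVen100 lungs (log2 difference 1.11 ± 0.22, adjusted p = 0.013). Cdk1 (0.91, adjusted p = 0.0098) and Pcna, the clamp of the replication fork (0.56, adjusted p = 0.016), were also higher. The groups did not overlap for any of the 5, as for 63.4% of all tested genes. Cdc25b, a phosphatase that activates cyclin-dependent kinases, was lower (-0.64, adjusted p = 0.023), as was Hmgb2, a chromatin protein (-0.87, adjusted p = 0.047). The T lymphocyte sums given above were also higher in Ven21, and their part was not tested. The number of higher members was 1 without Ven21 letter b, 2 without Ven21 letter a, 3 without NonVen100 letter b and 4 without NonVen100 letter a. Top2a kept its call under every alternative tried. Cdk1 lost it without Ven21 letter b, Ccnb1 without either Ven21 sample or NonVen100 letter b. Pcna lost it without either Ven21 sample or NonVen100 letter a, and Dut without any 1 of the 4.

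Of 17 tested lipid and sterol genes, 8 were higher in Ven21, 1 was lower and 8 did not pass. Besides Scd, Acadl, a long-chain acyl-CoA dehydrogenase, measured 2937 and 2981 in Ven21 lungs, against 1247 and 1513 in NonVen100 lungs (log2 difference 1.08 ± 0.18, adjusted p = 0.0074). Cpt2, of the mitochondrial carnitine shuttle, measured 812 and 773 in Ven21 lungs, against 429.7 and 413 in NonVen100 lungs (log2 difference 0.85 ± 0.14, adjusted p = 0.0086). Acly, which makes cytosolic acetyl-CoA, was also higher (log2 difference 0.64 ± 0.13, adjusted p = 0.016). Fat sums were 39930 and 41694 in Ven21 and 24194 and 25343 in NonVen100, and the part of fat in these genes was not tested. The count of higher members was 1 without Ven21 letter b, 2 without NonVen100 letter b, 3 without Ven21 letter a and 5 without NonVen100 letter a. It was 5 with the mean over the probe sets of a gene. Acadl lost its call without Ven21 letter b. Acly lost it without Ven21 letter b or NonVen100 letter b, and Cpt2 without either Ven21 sample or NonVen100 letter b. In oxidative phosphorylation, 4 of 34 tested genes were higher and 0 lower, a share of 11.8% near the 8.17% of all genes. With 1 of the 4 samples left out, 0 to 1 were higher. The complex I subunit Ndufa9 was the clearest (log2 difference 0.92 ± 0.17, adjusted p = 0.011), and it too lost its call without any 1 of the 4. Of 22 tested genes of hypoxia and glycolysis 3 were higher, the glucose transporter Slc2a1 (0.82, adjusted p = 0.015) and the enzymes Pgam1 (0.64, adjusted p = 0.011) and Eno1 (0.62, adjusted p = 0.0097). Vegfa and P4ha1 were the 2 lower. Pgam1 and Eno1 lost their call without either Ven21 sample, and Slc2a1 without Ven21 letter b or either NonVen100 sample.

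Other lists held few calls. Of 40 tested ribosomal protein genes 4 were lower and the other 36 did not pass. Rpl17 measured 343 and 185 in Ven21 lungs, against 1272 and 1901 in NonVen100 lungs (log2 difference -2.44 ± 0.28, adjusted p = 0.0015). Rpl30 measured 437 and 283 in Ven21 lungs, against 1287 and 1604 in NonVen100 lungs (log2 difference -1.91 ± 0.23, adjusted p = 0.0017). Rpl5 (log2 difference -1.80 ± 0.21, adjusted p = 0.0016) and Rpl3l, a muscle form (log2 difference -0.52 ± 0.15, adjusted p = 0.045), were the others. The probe sets of these 4 genes were far dimmer than most of the list, in which Rpl19, for example, measured 15246 and 16944 in Ven21 lungs. Of 13 tested chaperones of the endoplasmic reticulum only Pdia4, a disulfide isomerase, was called, lower at 1443 and 1262 in Ven21 lungs, against 2555 and 2652 in NonVen100 lungs (log2 difference -0.93 ± 0.13, adjusted p = 0.0032). Hspa5, the main chaperone of that compartment, did not pass (-0.17, adjusted p = 0.33, 95% interval -0.43 to 0.08). Slc4a1, the band 3 anion exchanger of red cells, was lower at 531 and 517 in Ven21 lungs, against 1015 and 987 in NonVen100 lungs (log2 difference -0.88 ± 0.13, adjusted p = 0.0053). Alas2, the first enzyme of erythroid haem synthesis, was also lower (log2 difference -0.55 ± 0.13, adjusted p = 0.026), while Hbb, beta globin, did not pass, at 8684 and 12383 in Ven21 lungs, against 8183 and 13133 in NonVen100 lungs (0.00, adjusted p = 1.00, 95% interval -0.77 to 0.77). Alas2 and Rpl3l lost their call without any 1 of the 4 samples, Rpl3l also without either NonVen21 sample. Proteasome and ubiquitin genes had a called share of 12.5%, beside 15.1% over all tested genes. Of 24 tested members 2 were higher, Psma5 (0.66, adjusted p = 0.018) and Psmc4 (0.56, adjusted p = 0.020), and 1 lower, the ubiquitin-conjugating enzyme Ube2b (-0.58, adjusted p = 0.014). Psma5 lost its call without any 1 of the 4 samples, the other two without either Ven21 sample or NonVen100 letter b. Oaz2, an antizyme that limits polyamines, was the 1 called of 9 in its list, at 9942 and 9522 in Ven21 lungs, against 5521 and 5742 in NonVen100 lungs (log2 difference 0.78 ± 0.14, adjusted p = 0.0094). It lost its call without either Ven21 sample. The clock gene Per2 was the 1 called of 7 clock genes (log2 difference -0.82 ± 0.21, adjusted p = 0.032). The B cell receptor gene Cd79b was the 1 called of 4 B cell genes (log2 difference -0.55 ± 0.16, adjusted p = 0.048). Both were lost without any 1 of the 4 samples, Cd79b also without either NonVen21 sample. No gene was called in the lists of p53 targets (7 tested), glucocorticoid-responsive genes (10 tested), natural killer cells (5 tested) and mast cells (4 tested).

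**Figure D5:**
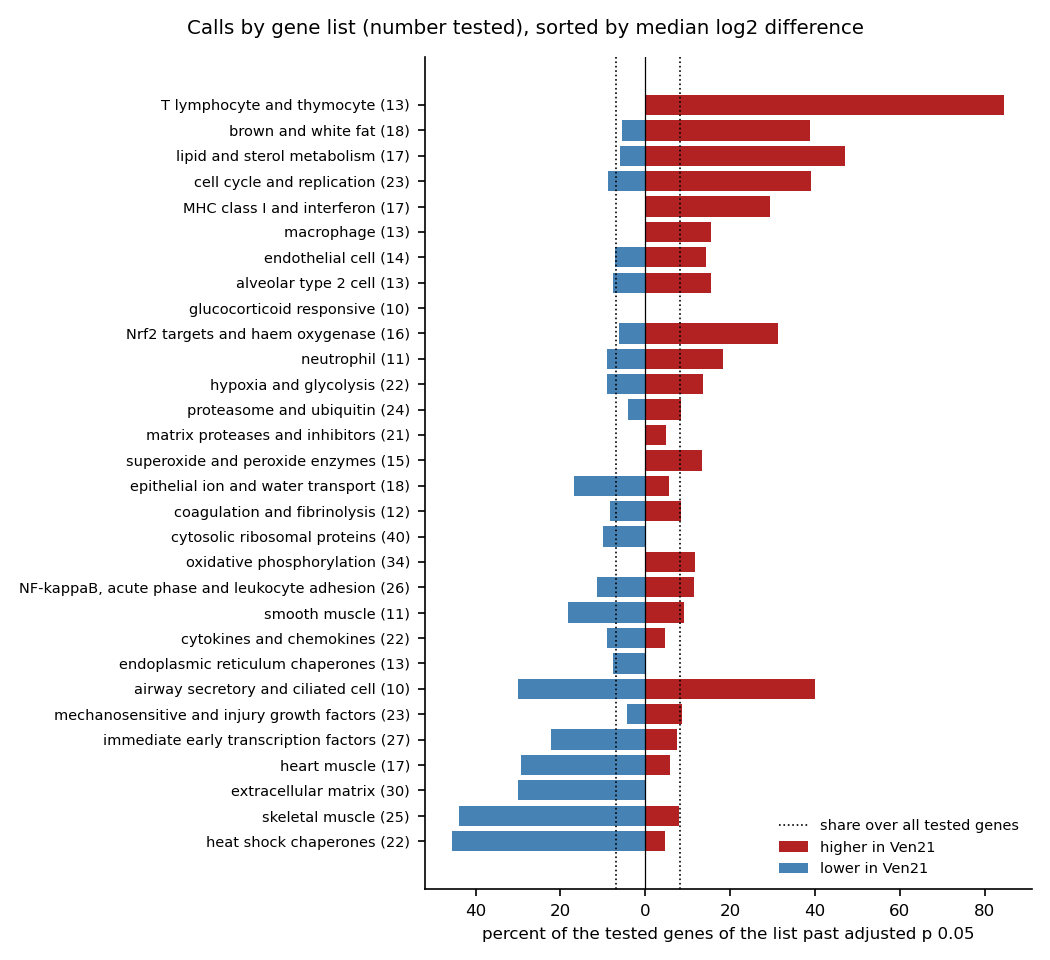
Share of the tested genes of each list with at least 10 tested genes that were called, to the right for higher and to the left for lower in Ven21, with dotted lines at 8.17% and 6.95%, the shares over all tested genes. Lists run by median difference from T lymphocyte at the top to heat shock chaperones at the bottom.

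The largest differences also held genes of no list. Plscr3, a mitochondrial phospholipid scramblase, measured 684 and 576 in Ven21 and was listed at or below 0 in both NonVen100 samples (adjusted p = 1.9e-05). It was 445 and 432 in Ven100 and 597 and 526 in NonVen21, so the NonVen100 samples were the only ones listed at or below 0. H19, an imprinted RNA of fetal tissues and adult muscle, was lower at 399 and 372 in Ven21 lungs, against 1866 and 1941 in NonVen100 lungs (log2 difference -2.19 ± 0.17, adjusted p = 2.3e-04), and its NonVen100 samples were the highest of all 8, as for the skeletal muscle genes. Septin1, a cytoskeletal GTPase of lymphocytes, measured 847 and 1002 in Ven21 lungs, against 155 and 37.5 in NonVen100 lungs (log2 difference 2.97 ± 0.54, adjusted p = 0.011). Acap1, an Arf GTPase-activating protein, measured 876 and 987 in Ven21 lungs, against 235 and 126 in NonVen100 lungs (log2 difference 2.18 ± 0.38, adjusted p = 0.0094). Slc27a1, a fatty acid transporter, measured 408 and 385 in Ven21 lungs, against 59.5 and 71.7 in NonVen100 lungs (log2 difference 2.05 ± 0.39, adjusted p = 0.012). Among the decreases, Gtf2f2, a subunit of the general factor TFIIF, measured 135 and 32.2 in Ven21 lungs, against 369 and 338 in NonVen100 lungs (log2 difference -1.80 ± 0.38, adjusted p = 0.017). Cspg5, a proteoglycan best known from brain, measured 87.6 and 72.7 in Ven21 lungs, against 325 and 347 in NonVen100 lungs (log2 difference -1.65 ± 0.30, adjusted p = 0.011). Slc27a1 lost its call without any 1 of the 4 samples. Septin1 lost it without either Ven21 sample or NonVen100 letter b, Acap1 without either letter b sample, and Gtf2f2 and Cspg5 without Ven21 letter b or either NonVen100 sample.

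The called genes were also placed against the 4 samples of Ven100 and NonVen21. They had been called on the same Ven21 and NonVen100 values, so part of this order was fixed by the call. The same counts over all tested genes are not given, so the numbers only describe the called genes. Of the 260 genes higher in Ven21, 109 had both Ven21 samples above all 6 others while NonVen100 did not stand apart, 95 had both NonVen100 samples below all 6 others while Ven21 did not, 45 had both, and 11 had neither. Of the 221 lower genes, the numbers were 103, 59, 30 and 29. Thy1, Tap2 and Psmb9 are of the first kind among the higher genes and Car4, Krt8 and Krt19 of the second. Set against NonVen21, 434 genes were called in Ven21 (13.6%) and 522 in NonVen100 (16.4%), by contrasts that share the NonVen21 samples. A line for a lot batch, with no lot given, stands in the descriptions of both NonVen21 arrays, of some Ven100 arrays and of none of the 4 arrays compared here. It does not differ between Ven21 and NonVen100, but cannot be told apart from the group in the contrasts with NonVen21.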

How the data were processed

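Total RNA of rat lung was measured on Affymetrix arrays, per the labels, and the deposited values are intensities, 1 per probe set and array. Their equal 2% trimmed means are a feature of the values; the software, scanner settings and labelling procedure are not given in the sources used here, and no detection calls were used. Leaving out 59 control probe sets left 8740 of 8799. Negative values became 0 before log2(value + 40), and no further scaling was applied. The 2 arrays of Ven100 letter b were averaged to 1 sample. Probe sets in the lowest 40% of mean, below an intensity of about 112.1, were not tested, which left 5244 probe sets and 3181 genes. Highest among the 23 control probe sets with no target was 202.5 on the 4 compared arrays. The precision of every value is limited by the 2 samples of a group.

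With limma 3.58.1 (R 4.3.3), the means of the 4 groups were estimated jointly from the 8 samples by lmFit and eBayes with a variance trend, at 4 residual degrees of freedom, and p-values were adjusted by Benjamini-Hochberg over the tested probe sets. Intervals are 95%. Letters were not taken to pair samples: across probe sets, same-letter deviations of Ven21 and NonVen100 correlated at -0.13. A gene was represented by its brightest probe set with a single symbol. By the array annotation 7006 probe sets had 1 symbol, 308 had several and 1426 had none. Of the single symbols 6985 matched the RefSeq gene table of GRCr8. The procedure was tested on simulated data with 200 of 5244 probe sets changed: 19.4%, 44.8% and 90.9% of changes of 1.5, 2 and 4 times were called for this contrast.

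The members and the 41 gene lists were chosen with earlier results of these data known. Genes named are the 15 of largest difference in each direction among called genes whose groups do not overlap and whose higher mean is at least 300, up to 5 genes of smallest p from each list, and a fixed set of stress, lung and marker genes. Genes named beyond that, mostly to complete a count or as tested members that did not pass, were chosen after their values were seen, as were the 3 promoters printed. Roles of genes are from general knowledge. Python 3.11.15 and matplotlib 3.10.9 made the figures.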

Additional observations from a re-analysis of the deposited data

How the results depend on the processing

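Of the 25 alternatives tried, those that kept all 4 compared samples gave 342 to 507 called genes, against 481: the lowest count was without the filter on dim probe sets (267 of those genes shared with the 481), the highest with cyclic loess normalization. Leaving out 1 sample gave 115 to 477, with 189 without Ven21 letter a, 115 without Ven21 letter b, 270 without NonVen100 letter a, 153 without NonVen100 letter b, and 450 to 477 without a sample of the other groups. In those fits the lone sample of a group was assumed to vary like the other groups. Without NonVen100 letter a, 68.5% of the calls were higher in Ven21, against 54.1% with all samples. The letter as a replicate block gave 368 calls. With the letters crossed (letter a of NonVen100 with letter b of Ven21), an alternative added after the values were seen, the replicate block gave 403. Centring each array on its median, also added then, gave 490. Of 128 called genes chosen by the naming rule, 83 lost their call under at least 1 alternative, and 45 kept it wherever they were tested. Some alternatives left called genes untested: 22 with only the brightest 40% of probe sets tested, and 26 with the marker lists left out. Of 80 named genes that were not called, 24 were called under at least 1. No named gene changed sign while called. The mean over the probe sets of a gene ended 18 of these 128 calls (Acadl, Acly, Car2, Cd14, Crem, Cspg5, Hadha, Il1a, Me1, Nkx2-1, Psma5, Ptgs2, RT1-DMb, Slc2a1, Thbd, Tnni3, Ube2b and Vegfa) and left Areg and Ccnb1 untested. Under it 0 cell cycle genes were lower, against 2. Signals near the filter carry more error, and an offset of 40 compresses their differences.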

Other observations

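Probe sets of 1 gene disagreed in several cases outside the values above. For Gadd45a, a stress-induced regulator of growth arrest and repair, the brightest probe set did not pass (0.27, adjusted p = 0.16), while 3 others were higher in Ven21 (0.55, adjusted p = 0.037, 2.49, adjusted p = 0.0048, and 1.68, adjusted p = 0.0082). For Canx, the calnexin chaperone, 1 probe set was lower (-0.99, adjusted p = 0.0018), 1 was higher (0.50, adjusted p = 0.037) and the brightest did not pass (0.44, adjusted p = 0.067). For Tpm1, a tropomyosin gene with many splice forms, 1 probe set was higher (0.60, adjusted p = 0.0096), 1 was lower (-1.45, adjusted p = 0.013) and the brightest did not pass (-0.37, adjusted p = 0.19). Dbp, a clock output factor, was higher by 1 probe set (1.45, adjusted p = 0.013) and did not pass by its brightest (0.52, adjusted p = 0.27). Whether these probe sets read different transcripts was not tested.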
